A study of Homo sapiens with 12 samples.

Results

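Accessibility was examined around 9 genes of osteoblast identity, RUNX2, SP7, ALPL, SPP1, IBSP, BGLAP, MSX2, DLX5 and TWIST1, in the human osteosarcoma cell line U2OS. The members were taken by name, and each was studied over its RefSeq gene body with 50 kb added on either side, which is called its window. Merging the peaks of 9 lists gave 311447 regions on chromosomes 1 to 22 and X, of which 160 overlapped the windows. Of these, 4 were called in every list (2.50%, against 2.08% of all regions). ATAC-seq inserts sequencing adapters into open chromatin with the Tn5 transposase, and a peak marks a place where insertions pile up above the local background. Here 12 samples formed 6 groups of 2, in 2 sets that were called in different ways. The comparison asks whether the open chromatin of the bone genes stays called when FOXA2 or SOX2 is expressed.

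The FOXA2 set held samples labelled wild type, samples expressing full-length FOXA2 and samples expressing FOXA2 without its CTD, with 1 peak list per library. The SOX2 set held its own wild-type samples, samples expressing full-length SOX2 and samples expressing a SOX2-FOXA2 CTD fusion, with 1 list per group. By the series' design text, expression was inducible with a Tet-on system and the FOXA2 proteins carried a Flag tag. All construct samples were given 500 ng/ml doxycycline for 4 days. The treatment entry of both wild types is NA while the shared protocol mentions doxycycline, so it is not known whether they received it. The wild type of the SOX2 set is also labelled with the SOX2 cell line, so its cells may carry a construct that was not induced. Replicates are labelled biological. Whether the inducible lines were clones or pools is not given in the sources used here. The second samples of the SOX2 set had no list of their own, and the inputs of its lists are not named.

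Osteoblasts arise from mesenchymal progenitors under RUNX2, a runt-domain factor required for bone formation, and SP7 (osterix), a zinc-finger factor that acts downstream of it. MSX2 and DLX5 are homeobox factors of skeletal and craniofacial development, and TWIST1 is a basic helix-loop-helix factor that restrains RUNX2 in early progenitors. The products of mineralizing cells are ALPL, the alkaline phosphatase that frees phosphate, and the matrix proteins SPP1 (osteopontin), IBSP (bone sialoprotein) and BGLAP (osteocalcin). RUNX2 is transcribed from a distal and a proximal promoter. FOXA2 is a forkhead factor of the endoderm and SOX2 an HMG-box factor of pluripotent and neural cells, and both can bind sites in closed chromatin.

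The promoters on which results below turn are shown first, because they differ in base composition and in the motifs they hold. Each is the 250 bases before a transcript start in RefSeq (GRCh38.p14), 5′ to 3′ on the gene's strand, which is the plus strand in all 4, with motif matches in capitals. The distal RUNX2 promoter at chr6:45328080-45328329 holds TGAGTCA, a match to the AP-1 motif TGANTCA, and AACCACA, the reverse complement of the RUNX motif TGTGGTT. The proximal RUNX2 promoter at chr6:45422025-45422274, the SPP1 promoter at chr4:87975464-87975713 and the BGLAP promoter at chr1:156241934-156242183 follow.
RUNX2 distal: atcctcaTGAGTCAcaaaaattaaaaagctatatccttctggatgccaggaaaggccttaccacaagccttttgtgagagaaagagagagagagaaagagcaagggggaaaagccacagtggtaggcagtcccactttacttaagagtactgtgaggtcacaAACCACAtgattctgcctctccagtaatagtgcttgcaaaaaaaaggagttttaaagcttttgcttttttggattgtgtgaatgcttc
RUNX2 proximal: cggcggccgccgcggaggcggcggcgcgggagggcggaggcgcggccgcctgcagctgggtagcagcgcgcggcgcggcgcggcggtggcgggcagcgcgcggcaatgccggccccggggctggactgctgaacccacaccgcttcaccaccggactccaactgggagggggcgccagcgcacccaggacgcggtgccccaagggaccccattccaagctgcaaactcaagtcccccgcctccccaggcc
SPP1: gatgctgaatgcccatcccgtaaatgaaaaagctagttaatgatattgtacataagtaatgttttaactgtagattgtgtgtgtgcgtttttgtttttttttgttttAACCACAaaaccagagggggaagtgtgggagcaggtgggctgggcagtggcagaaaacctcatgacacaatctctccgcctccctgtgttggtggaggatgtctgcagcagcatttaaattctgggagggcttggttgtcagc
BGLAP: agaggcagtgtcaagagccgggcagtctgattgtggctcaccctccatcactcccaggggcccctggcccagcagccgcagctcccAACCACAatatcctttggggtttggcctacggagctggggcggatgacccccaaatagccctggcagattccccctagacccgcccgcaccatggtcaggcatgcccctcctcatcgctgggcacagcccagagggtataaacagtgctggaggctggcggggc

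RefSeq held such stretches for 6 members, 9 transcript starts in all. Searched on both strands, TGTGGTT was found in 3 of the 9 (distal RUNX2, SPP1 and BGLAP) against 3.14% of 22156 promoter stretches of protein-coding genes. The AP-1 motif was in 1 of the 9, against 5.36%. The forkhead motif TGTTTAC, which FOXA proteins recognise, was in none, against 2.46%, and the SOX motif CATTGTT was in none, against 2.07%. A match describes the letters only. In G and C content the distal RUNX2 stretch had 41.6%, SPP1 44.8%, IBSP 40.0%, MSX2 55.6% and BGLAP 64.4%, while the proximal RUNX2 stretch had 78.0% and the 3 ALPL stretches 60.4, 83.6 and 49.6%. The median promoter stretch had 62.0%, so 6 of the 9 lay below the median.

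The lists differed in length and threshold. They held 19862 and 25088 peaks for the wild-type libraries, 161136 and 57946 with full-length FOXA2, 78820 and 146854 with the CTD deletion, and 48142, 65628 and 75544 in the SOX2 set for wild type, SOX2 and fusion at a global IDR (irreproducible discovery rate) of at most 0.05. The lowest −log10 p, as deposited by the authors, was 5.43 in wild type replicate 2 and 5.22 in full-length replicate 2, whose peak names state a p threshold, and between 2.01 and 3.44 in the other 4 libraries of that set. Read depth is unknown. A −log10 p is therefore read only within its list, where it is also given as a percentile, with 100 the strongest. The exception is the stricter threshold used as an alternative, which applied 5.43 to every library of the FOXA2 set. It left 16982 and 25088 peaks in wild type, 36084 and 57803 with full length, and 30256 and 37035 with the CTD deletion. With 2 libraries against 2, an exact test cannot go below a two-sided p of 0.333, so none was made, and counts of gained, lost and open features are set beside the same over all regions or genes.

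A gene start was counted as open when a peak lay within 1 kb of it. In wild type replicate 1 a single member, RUNX2, had such a peak (1 of 9, against 36.3% of 15812 protein-coding genes), and in wild type replicate 2 none did (against 34.8%), so no member was open in both (28.1% of all genes were). The full-length FOXA2 libraries had 4 and 3 open members (against 62.7 and 55.1%), and the CTD deletion libraries 1 and 3 (against 48.7 and 63.0%). With full-length FOXA2, RUNX2 and SP7 were open in both libraries (2 of 9, against 52.8% of all genes), and with the CTD deletion MSX2 alone was (1 of 9, against 46.7%). In the SOX2 set, RUNX2, SP7, SPP1, BGLAP and MSX2 were open in wild type (5 of 9, against 54.7%), RUNX2 and SP7 with SOX2 (2 of 9, against 57.2%), and RUNX2, SP7, SPP1 and MSX2 with the fusion (4 of 9, against 52.1%). ALPL, IBSP, DLX5 and TWIST1 had no promoter peak in any of the 9 lists, which held for 27.3% of all genes. At equal numbers of strongest peaks the full-length libraries had 1 and 0 open members (31.5 and 33.5% of genes), the CTD deletion libraries 0 and 1 (25.9 and 32.3%), and the fusion 2 (45.7%). As a check of the labelled bone origin, the defining products of osteoblasts were thus split: SPP1 and BGLAP had promoter peaks in the wild type of the SOX2 set, and ALPL and IBSP had none.

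**Figure D1:**
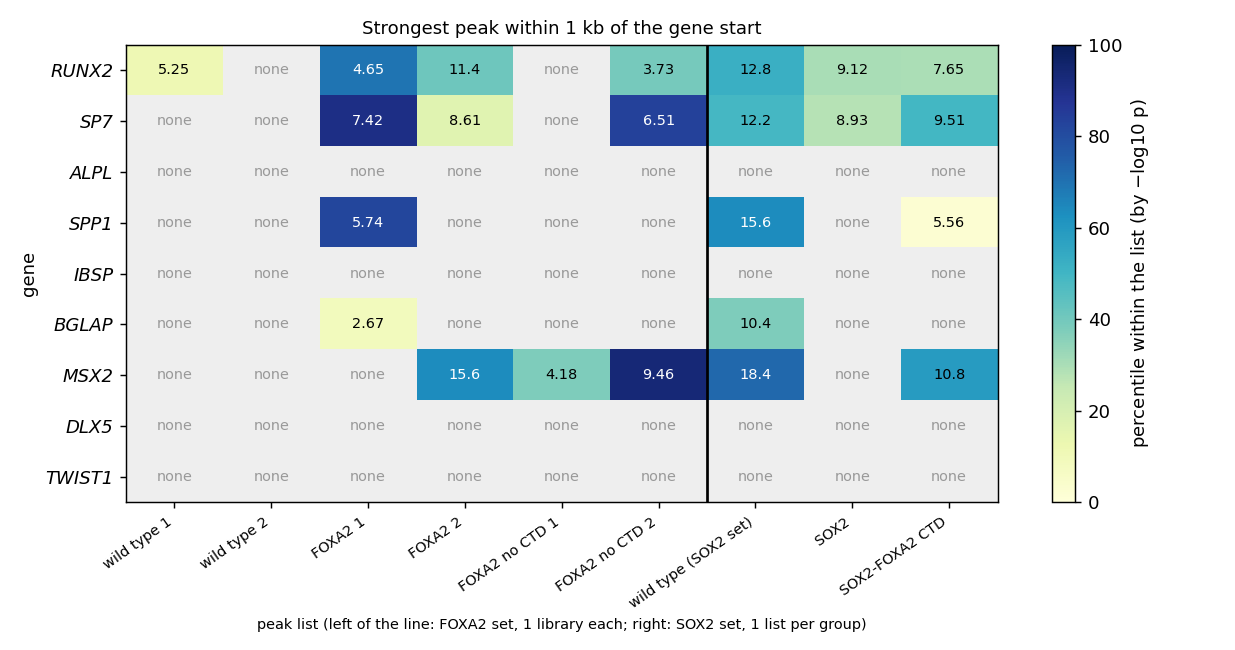
Strongest peak within 1 kb of each gene start (rows) in each of the 9 lists (columns). Colour is the percentile of the peak within its list, the printed number its deposited −log10 p, and grey cells marked none have no peak. RUNX2 is filled in 7 lists and SP7 in 6, while ALPL, IBSP, DLX5 and TWIST1 are grey throughout.

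The distal RUNX2 promoter was called in 7 of 9 lists. Its −log10 p was 5.25 in wild type replicate 1, 4.65 and 11.4 with full-length FOXA2, 3.73 in CTD deletion replicate 2, 12.8 in the wild type of the SOX2 set, 9.12 with SOX2 and 7.65 with the fusion. Wild type replicate 2 and CTD deletion replicate 1 had no peak there. The percentiles ran from 11.7 in wild type replicate 1 to 69.4 in full-length replicate 1, so it was never among the strongest peaks of a list. The proximal start, 93945 bp further along, was called in 2 lists only, with a −log10 p of 6.85 in the wild type of the SOX2 set and 2.83 in full-length replicate 1. With SOX2 and with the fusion, entries within 1 kb of it did not pass the IDR. The start with the higher G and C content in the sequences above was thus the one with fewer calls.

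SP7, the factor downstream of RUNX2, had a promoter peak with −log10 p of 7.42 and 8.61 in the full-length libraries and 6.51 in CTD deletion replicate 2, and none in either wild type of that set or in CTD deletion replicate 1. In the SOX2 set all 3 lists called it, at 12.2 in wild type, 8.93 with SOX2 and 9.51 with the fusion. It is the 1 member promoter that met the rule for gained with full-length FOXA2, called in both construct libraries and no wild-type library (11.9% of gene starts did). MSX2 met that rule with the CTD deletion (8.27% of gene starts). Its −log10 p was 4.18 and 9.46 there, and 15.6 in full-length replicate 2, with no peak in full-length replicate 1 or either wild type. In the SOX2 set the MSX2 promoter was the strongest of the members in wild type, at 18.4, and was called with the fusion at 10.8. With SOX2 an entry was present whose inputs had −log10 p of 16.6 and 2.69, and whose IDR of 0.524 failed the threshold, so 1 of the 2 inputs was strong there.

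SPP1 and BGLAP, both matrix genes, were each called in the wild type of the SOX2 set and in full-length replicate 1, and SPP1 also with the fusion. For SPP1 the −log10 p was 15.6 in that list, 5.56 with the fusion and 5.74 in full-length replicate 1, and the SOX2 entry failed with an IDR of 0.254. For BGLAP the −log10 p was 10.4 in the wild type of the SOX2 set and 2.67 in full-length replicate 1. Its entries with SOX2 and the fusion had IDRs of 0.524 and 0.511. SPP1, BGLAP and MSX2 were therefore lost at their starts with SOX2 (3 of 9, against 5.63% of gene starts), and BGLAP with the fusion (1 of 9, against 9.21%). In each of these cases the construct list held an entry that failed the IDR threshold.

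Within the whole RUNX2 window 42 of the merged regions were called in at least 1 list, 29 of them in 1 list only. The most widely called was a region in the gene body at chr6:45445339-45446564, whose midpoint lies 117621 bp after the gene start. It was found in 8 lists, all but wild type replicate 2, with −log10 p of 6.24 in wild type replicate 1, 2.83 and 13.5 with full-length FOXA2, 4.84 and 4.01 with the CTD deletion, and 14.5, 13.6 and 10.4 in the wild type, SOX2 and fusion lists. This interval inside RUNX2 was thus called with every construct, though the summits of the 8 lists spanned 824 bp. The summit lay at 117121 bp in full-length replicate 1, against 117694 bp in replicate 2 and 117796 bp in wild type replicate 1. The calls may therefore not all mark 1 site.

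The strongest RUNX2 peak in each of the 4 FOXA2 construct libraries was a different one, beyond the 3′ end of the gene at chr6:45580214-45581135 (252344 bp after the start). Its −log10 p was 9.54 and 33.4 with full-length FOXA2 and 9.01 and 8.33 with the CTD deletion, at percentiles from 87.9 to 95.7. Neither wild-type library had a peak there, and none of the SOX2-set lists held an entry there, passing or not. The 4 summits fell within 253 bp of each other. A weaker region with the same pattern lay in the gene body at chr6:45493527-45494180, with −log10 p of 5.68, 19.97, 7.17 and 4.49 in the same order. The first of the 2 was also gained with both constructs when every library was cut to its 19862 strongest peaks. The second was not gained with either construct at that setting.

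SOX2 and the fusion gave a separate pair of regions upstream of RUNX2, inside the neighbouring gene SUPT3H. The region at chr6:45294048-45294899 (-33857 bp) had −log10 p of 13.1 with SOX2 and 12.8 with the fusion, no wild-type entry at any IDR, and no peak in the FOXA2 set. It was the strongest fusion peak of the window. The region at chr6:45277970-45278959 (-49866 bp) had 9.29 and 10.2 in those lists and peaks also in full-length replicate 1 and CTD deletion replicate 2. In the other direction, chr6:45566573-45567409, which lies 238661 bp after the start, was the strongest RUNX2 peak of the wild type of the SOX2 set at 16.4, and neither construct list had an entry there. Among the FOXA2 libraries it was called in CTD deletion replicate 2 alone, at 3.08. A gene-body region at chr6:45504878-45505713 was called in that wild type at 11.7 and with SOX2 at 13.4. It was lost with the fusion, where an entry with an IDR of 0.0634 just missed the threshold.

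**Figure D2:**
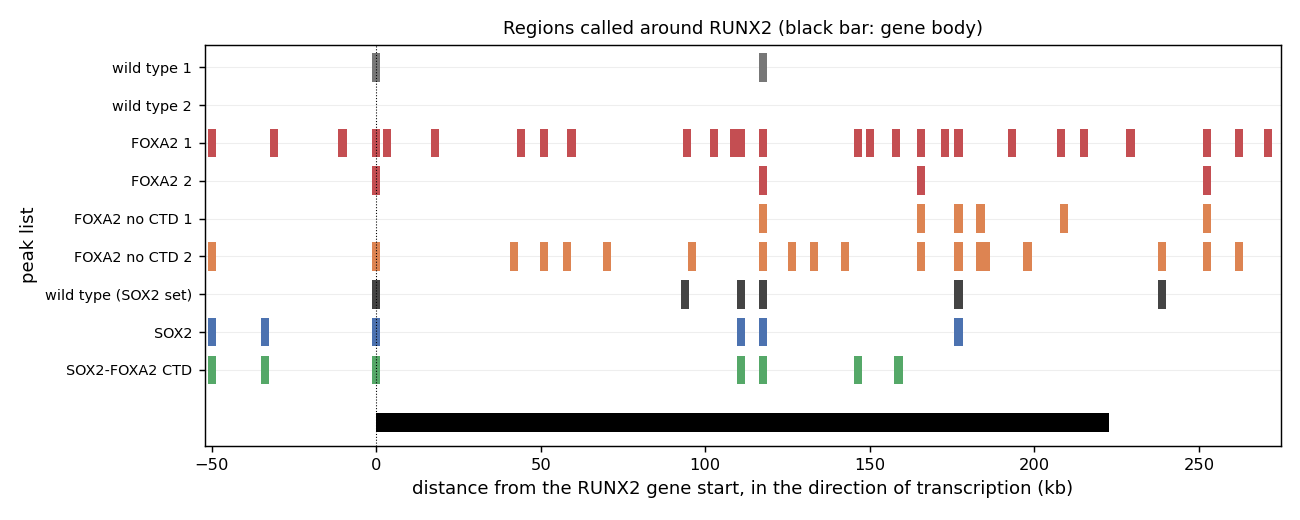
Regions called around RUNX2 in each list (rows), by distance from the gene start in kb along the direction of transcription. Bars are drawn at region midpoints and narrow ones are widened to be visible, and the black bar is the gene body. The column at 117621 bp is filled in 8 lists, the column at 252344 bp in the 4 FOXA2 construct libraries only, and the column at -33857 bp in the SOX2 and fusion lists only.

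The SP7 window was dense in peaks that belong to its neighbours. Of its 20 regions, 2 were called in all 9 lists, at chr12:53379286-53380953, the start of SP1, a ubiquitous zinc-finger factor, and at chr12:53320971-53322041, the start of AAAS, a nuclear pore gene. The SP1 start was the strongest SP7-window peak in most lists, at percentiles from 96.5 to 99.6. Closer to SP7, a region at chr12:53352446-53353115 (-7987 bp) was called in all 4 FOXA2 construct libraries, with −log10 p of 7.74 and 11.4 for full length and 4.75 and 5.95 for the CTD deletion, and in no wild type of the set. The SOX2 set had entries at that place in all 3 lists, and all failed the IDR. A further such region, chr12:53287531-53288141, lay inside ESPL1 and was also called with SOX2. With the fusion alone, a region inside AAAS at chr12:53310324-53311202 reached 14.1 with no wild-type entry.

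MSX2 has no other protein-coding gene in its window and had 5 regions. Besides the promoter, a wide region with its midpoint 26814 bp after the start was called in the wild type of the SOX2 set at 8.74 and with SOX2 at 8.59, but not with the fusion. Each full-length FOXA2 library had a peak within its bounds, but at separate places, with summits 706 bp apart. No region of the MSX2 window was called in every list of the SOX2 set. Neither wild-type library of the FOXA2 set had any peak in the window.

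The steadiest region that was not at another gene's start belonged to DLX5. The region chr7:97016105-97017840, between DLX5 and its neighbour DLX6, lies 7859 bp after the DLX5 start and was called in all 9 lists. Its −log10 p was 9.54 and 15.4 in the wild types of the FOXA2 set, 10.0 and 18.8 with full-length FOXA2, 12.8 and 10.2 with the CTD deletion, and 31.2, 24.4 and 24.0 in the SOX2 set for wild type, SOX2 and fusion. It was the strongest peak of the window in every list, at percentiles from 71.6 to 96.4. A second region, at chr7:97027266-97028271 (-2937 bp), was called in 8 lists, all but wild type replicate 2. The edge of its peak lay between 2435 and 2785 bp from the DLX5 start in those 8 lists, outside the 1 kb that counted as promoter. DLX5, with no promoter call in any list, thus had calls on both flanks with every construct.

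At TWIST1, a region at chr7:19114115-19114930, which lies 3114 bp after the start, had −log10 p of 5.37 in wild type replicate 1, 6.17 and 17.7 with full-length FOXA2, and 7.64 and 10.99 with the CTD deletion. It was the strongest TWIST1 peak in all 4 construct libraries. In the SOX2 set it passed with the fusion alone, at 5.53. The most widely called TWIST1 region was another, chr7:19078696-19079759, found 38409 bp after the start in 7 lists. Its −log10 p was 6.40 in wild type replicate 1, 4.08 in full-length replicate 1, 4.18 and 4.01 with the CTD deletion, and 11.01, 7.89 and 6.33 in the wild type, SOX2 and fusion lists. The 7 summits spanned 424 bp, and the full-length replicate 1 peak did not overlap the SOX2-set peaks there. SOX2 and the fusion also shared a region at chr7:19121623-19122346 (-4348 bp), with 12.8 and 12.5, and one at chr7:19100450-19100944, with 9.12 and 12.8. Neither had a wild-type entry at any IDR or a peak in the FOXA2 set.

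Among the matrix and mineral genes, SPP1 and IBSP lie in 1 cluster on chromosome 4 and each had a region seen with both FOXA2 constructs. At SPP1 it was chr4:87967742-87968395 (-7646 bp), with −log10 p of 9.48 and 19.97 for full length and 7.20 and 7.18 for the CTD deletion, the strongest SPP1-window peak in all 4 libraries. It had no peak in either wild type and no entry in the SOX2 set, and it was gained with both constructs at equal numbers of peaks. At IBSP it was chr4:87805750-87806453 in the gene body, with 7.74, 22.3, 8.04 and 6.07. The fusion also passed there at 6.57, and the wild type of the SOX2 set had an entry with an IDR of 0.113. The 4 summits spanned 151 bp at SPP1 and 441 bp at IBSP.

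The most widely called IBSP region, in 6 lists, was chr4:87848692-87849513, which lies 49548 bp after the start, with −log10 p of 7.35 in wild type replicate 1, 7.55 and 9.53 with full length, 5.91 in CTD deletion replicate 1, and 6.45 and 8.45 in the wild type and SOX2 lists of the SOX2 set. The CTD deletion gave 2 further IBSP regions that full length did not call in both libraries. The stronger, at chr4:87843765-87844328 inside MEPE, a gene for another bone matrix protein, had 7.23 and 9.48 and no peak in either full-length library. It was called in all 3 lists of the SOX2 set, at 22.9 in wild type, 12.2 with SOX2 and 14.5 with the fusion. The strongest IBSP-window peak of the wild type of the SOX2 set, at chr4:87818910-87820167, had 34.7 there (percentile 94.8), and 8.30 with SOX2 (percentile 23.3) and 8.77 with the fusion (percentile 42.2). It stayed called in all 3 lists, and since the lists differ in length, no change is read from these ranks.

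For SPP1, a region inside PKD2 at chr4:88017565-88018305 was called in all 6 libraries of the FOXA2 set, with −log10 p from 4.01 to 9.53, and in the wild type of the SOX2 set at 12.6. Neither SOX2 nor the fusion had an entry there. The PKD2 start at chr4:88007079-88008932 was likewise called in 7 lists. BGLAP, a gene of about 1 kb, sits among 7 other protein-coding genes, and its most widely called regions were their starts. The SLC25A44 start at chr1:156193072-156194638 was called in 9 lists, and the starts of PMF1 and of TMEM79 in 8 each. A region inside PMF1 (-16608 bp) met the rule for gained with both SOX2, at 13.0, and the fusion, at 9.58. For ALPL, neither wild-type library of the FOXA2 set nor full-length replicate 2 had a peak in its 169 kb window. Its most widely called region, 78100 bp after the start, was found in 5 lists, with 15.1, 10.3 and 9.80 in the SOX2 set.

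**Figure D3:**
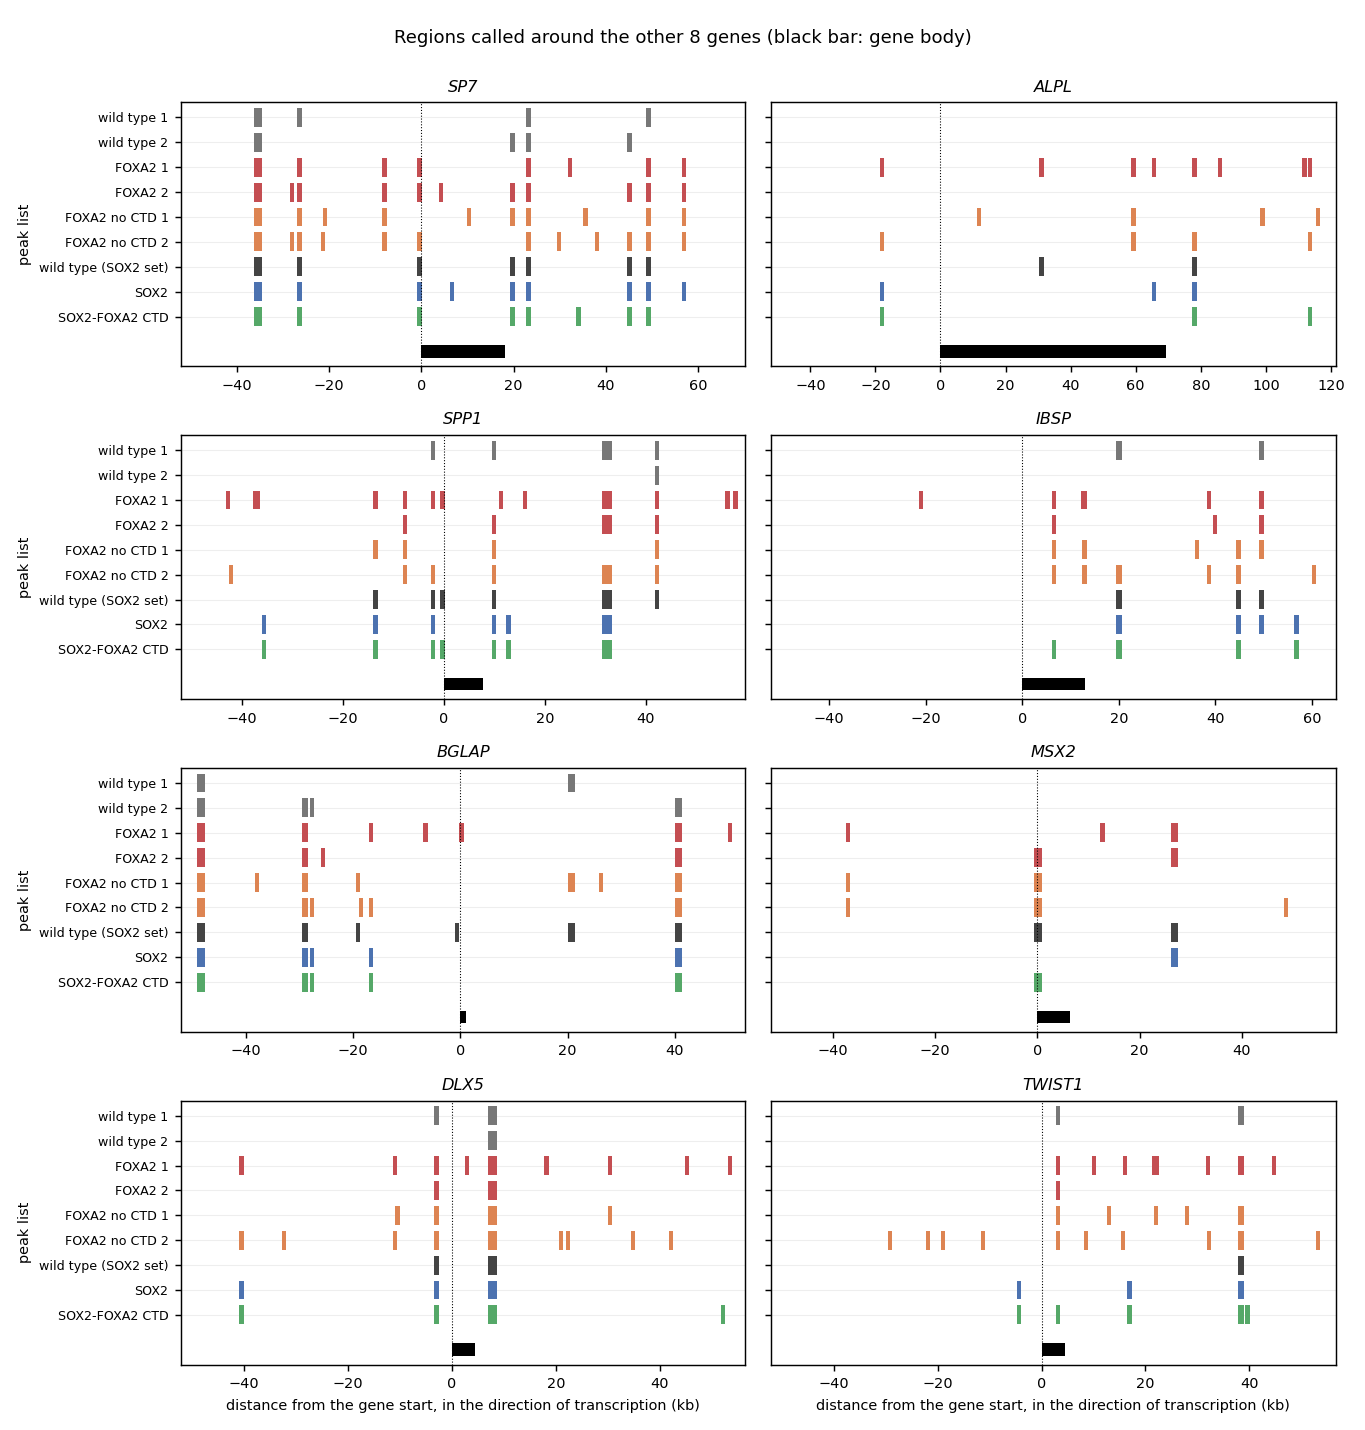
Regions called around SP7, ALPL, SPP1, IBSP, BGLAP, MSX2, DLX5 and TWIST1, 1 panel each, with the lists in rows and the distance from the gene start in kb on the x axis. Bars are at region midpoints with narrow ones widened, and black bars are gene bodies. Columns filled in all 9 rows appear in the SP7, BGLAP and DLX5 panels, and columns filled only by the 4 FOXA2 construct libraries at -7646 bp of SPP1 and -7987 bp of SP7.

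Over all windows, 5 regions were called in both wild types of the FOXA2 set, at the SP1, AAAS and SLC25A44 starts, in PKD2 and between DLX5 and DLX6. All 5 were called in each of the 4 construct libraries (100%, Wilson 95% interval 56.6 to 100%), where the background was 92.3 and 88.9% for the full-length libraries and 93.0 and 96.2% for the CTD deletion libraries. As regions called in every list of the set, they make up 3.16% of its 158 window regions, where 3.15% of all regions were so called. Of the 158, 110 were called in a single list (69.6%, against 69.0%). None of the 9 promoters is among the 5. Full-length FOXA2 gained 7 of 158 regions (4.43%, against 9.06% of all regions of the set), and the CTD deletion gained 13 (8.23%, against 8.72%). No region was lost with either (0.155 and 0.0576% of all regions were, or 3.96 and 1.48% of all regions called in both wild types). The counts of gains changed with the libraries used and with the number of peaks taken, and why they changed was not tested. Without full-length replicate 2, replicate 1 or wild type replicate 1 they numbered 76, 13 and 15 with full length. Without CTD deletion replicate 1, replicate 2 or wild type replicate 1 they numbered 58, 31 and 20 with the CTD deletion. Over all regions the shares gained at these settings were 48.3, 12.4 and 10.1% for full length and 42.4, 19.5 and 10.1% for the CTD deletion, in the same order. At equal numbers of strongest peaks each construct gained 3 of 32 window regions, against 7.52% of all regions for full length and 5.74% for the CTD deletion. With 5 starting regions, a loss at the rate of all regions could not be seen.

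Of the gained regions, 6 were called in all 4 construct libraries and neither wild type (3.80%, against 4.29% of all regions), at RUNX2 (2), SP7 (2), SPP1 and IBSP. Of these, 3 overlapped nothing in the SOX2-set lists, whatever the IDR (1.90%, against 2.21%): the RUNX2 region beyond the gene end, the one in its gene body and the SPP1 region. The shares are near those of all regions. The CTD-deletion gains outside that group comprised the MSX2 promoter, an MSX2 region at -36976 bp, 2 regions in RUNX2, 2 at IBSP and 1 in ALPL. Gained with one construct and not the other was not tested as a difference.

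In the SOX2 set, 35 window regions were called in wild type. SOX2 kept 26 of them (74.3%, Wilson 95% interval 57.9 to 85.8%, against 63.6% of all regions) and the fusion 25 (71.4%, 54.9 to 83.7%, against 63.3%). Both intervals include the share of all regions, and they cover counting error only. All 7 wild-type regions of the SP7 window, its promoter included, were called with both constructs, as were both of DLX5 and the 1 of TWIST1. Of the 7 SP7-window regions, 4 lay at the starts of the neighbours PFDN5, MYG1, AAAS and SP1. BGLAP kept 3 of 6 with either construct, and these 3 were the starts of SLC25A44, PMF1 and TMEM79. All 3 lists shared 23 of the 57 window regions (40.4%, against 24.7% of all regions). Among the 23 were 8 at another gene's start, so the kept shares are not those of the bone genes alone.

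SOX2 lost 9 window regions (15.8%, against 17.0%) and gained 14 (24.6%, against 33.9%), and the fusion lost 10 (17.5%, against 17.1%) and gained 19 (33.3%, against 43.7%). Of the lost regions, 7 of 9 with SOX2 and 7 of 10 with the fusion still had an entry that failed the IDR (65.8 and 75.0% over all lost regions). Regions lost with both constructs numbered 7 (12.3%, against 12.2%), and those gained with both numbered 11 (19.3%, against 24.2%). At equal numbers of strongest peaks SOX2 gained 8 and lost 14 of 48 window regions (27.5 and 27.4% of all regions), and the fusion gained 11 and lost 14 (31.1 and 31.1%). As a share of the 35 wild-type regions, the losses came to 25.7% with SOX2 (36.4% over all wild-type regions) and 28.6% with the fusion (36.7%). The 2 lost regions that kept that class at every setting, with either construct, were the RUNX2 region beyond the gene end at 238661 bp and the SPP1-window region in PKD2. With SOX2 the strongest lost regions were the MSX2 promoter, that RUNX2 region and the SPP1 promoter.

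**Figure D4:**
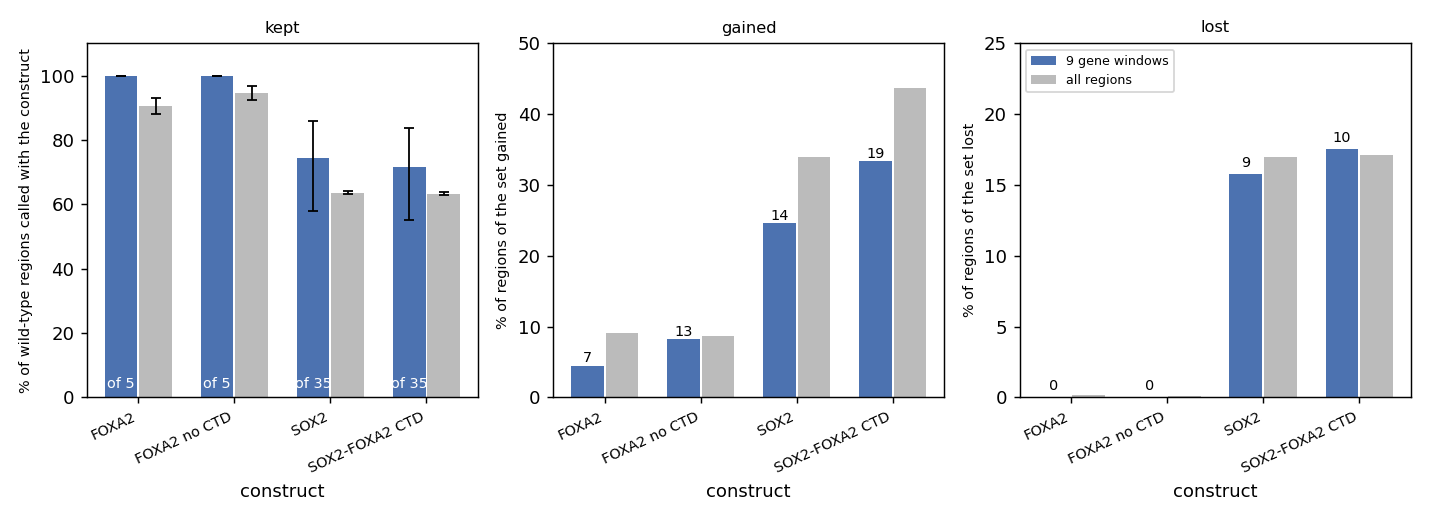
Percent of wild-type regions still called (left), and of all regions of the set gained (middle) or lost (right), for the 4 constructs, in the 9 gene windows (blue) and over all regions (grey). Error bars in the left panel are the SD of 2 libraries for the FOXA2 constructs and Wilson 95% intervals for the SOX2 set, and the numbers on blue bars are counts of regions. The y axes differ in range. The blue bars of the SOX2 set stand at 74.3 and 71.4% beside grey bars of 63.6 and 63.3%.

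In the windows there were 19 and 10 peaks in the wild types of the FOXA2 set, 96 and 31 with full-length FOXA2, 47 and 82 with the CTD deletion, and 35, 40 and 44 in the SOX2 set. At equal numbers of strongest peaks the counts were 19, 8, 14, 14, 12 and 13, and 35, 29 and 32. The construct libraries of the FOXA2 set, with 31 to 96 peaks against 10 and 19 in wild type, had 12 to 14 against 8 and 19 at the same list length. Per 100 kb, the median member had 1.92 peaks in wild type replicate 1 (0.927 for the median protein-coding gene), 0 in wild type replicate 2 (0.897), 7.65 and 1.92 with full-length FOXA2 (6.26 and 2.54) and 3.83 and 6.50 with the CTD deletion (3.18 and 5.78). In the SOX2 set it had 1.92 in wild type (2.36), 2.87 with SOX2 (2.79) and 3.83 with the fusion (2.92). SP7 stood at or above the 91st percentile of all genes in 8 of the 9 lists, and RUNX2, with the longest window, was below the median gene in 7.

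**Figure D5:**
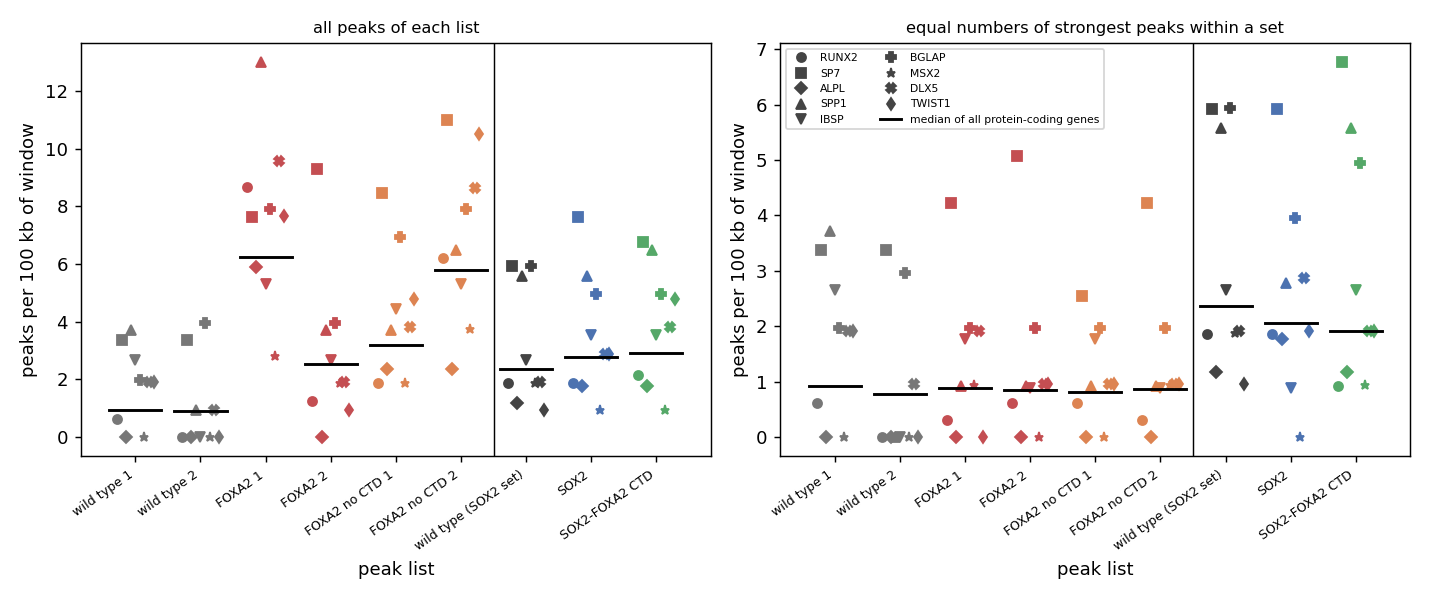
Peaks per 100 kb of window for each of the 9 genes (symbols) in each list, with the median of all protein-coding genes as a black line, for all peaks (left) and for equal numbers of strongest peaks within a set (right). SP7, the squares, lies above the line in every list, and MSX2, the stars, is at 0 in both wild types of the FOXA2 set.

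A list of 35 other osteoblast genes (regulators, BMP and WNT pathway genes, matrix and mineral genes) was counted in the same way. Open in every list of the group were 9 in the wild type of the FOXA2 set, 18 with full-length FOXA2, 18 with the CTD deletion, and 20 each in the wild type, SOX2 and fusion lists of the SOX2 set. Against the backgrounds of 28.1, 52.8, 46.7, 54.7, 57.2 and 52.1% these are 25.7, 51.4, 51.4, 57.1, 57.1 and 57.1%. The wider list thus had promoter calls at about the rate of all genes. In all 9 lists 8 of the 35 were open (22.9%, against 21.5% of all genes), and in no list another 8 (22.9%, against 27.3%). The latter were the osteocyte genes DMP1, MEPE, PHEX and SOST, and also TCF7, PTH1R, OMD and CDH11. Both shares are near those of all genes.

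With full-length FOXA2, 5 of these starts were gained: CBFB, the partner subunit of RUNX proteins, the BMP signal gene SMAD1, the BMP receptor gene BMPR1A, PHOSPHO1, a phosphatase of mineralization, and ANKH, which exports pyrophosphate. The CTD deletion gained 6, of which CBFB, BMPR1A, PHOSPHO1 and ANKH were shared, with SMAD5 and LEF1, a WNT pathway factor, in addition. None was lost with either. Of all gene starts, 11.9 and 8.27% were gained and 0.0126 and 0.0569% lost with these constructs. Most of the named starts were open in the wild type of the SOX2 set. There CBFB, PHOSPHO1, ANKH, SMAD5 and LEF1 had percentiles of 61.5, 67.2, 92.7, 70.5 and 24.0, while SMAD1 and BMPR1A had no peak. SOX2 gained BMPR2 and FGFR2, both receptor genes, and lost 2, RUNX1 among them, where 8.11% of all gene starts were gained and 5.63% lost. Both gains hold against the wild type of the SOX2 set only. The FGFR2 start was open in every library of the FOXA2 set, at percentiles 34.3 and 12.8 in its wild types. BMPR2 was open in wild type replicate 2 of that set (percentile 41.8). The fusion gained 4 and lost 4, where 6.60% of all gene starts were gained and 9.21% lost, with FGFR2, SMAD1 and BMPR1A among the gains and RUNX1 and LEF1 among the losses.

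Small lists of other lineages were counted too, and 3 of 5 cartilage genes, 3 of 5 muscle genes and 2 of 5 adipocyte genes were open in no list (against 27.3% of all genes). The cartilage regulator SOX9 was open in all 9 lists, while ACAN, COL2A1 and COMP were open in none. The closed muscle genes were MYOD1, MYF5 and DES, and MYOG was open in 1 list. The closed adipocyte genes were ADIPOQ and PLIN1, while CEBPA was open in 4 lists and FABP4 in 2. The matrilin gene MATN3 and the myogenic factor gene PAX7 were gained with full-length FOXA2, and PPARG with SOX2. Of all gene starts, 11.9 and 8.11% were gained with these constructs. MATN3 and PAX7 were also open in all 3 lists of the SOX2 set, at percentiles 49.9 and 22.4 in its wild type. PPARG was also open in full-length FOXA2 replicate 1 (percentile 41.7).

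By the percentile of the promoter peak over the 9 lists, with 0 for no peak, the genes nearest to RUNX2 were IGFBPL1 and MAP2K2, at a mean absolute difference of 6.23 and 6.45 percentile points. For SP7 they were ALKBH2 (5.39) and OAS3 (5.87), and for MSX2 BARHL1 (7.96) and USP12 (10.8). The 9 lists share thresholds and lengths with every gene, so the likeness describes these lists only.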

How the data were processed

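ATAC-seq peak lists of U2OS cells were analysed, 6 of single libraries and 3 of groups. Per the submitters' processing notes, the tools named were FastQC 0.10.1, Trim Galore, Bowtie2 2.4.4, SAMtools 0.1.18, MACS2 and deepTools 2.4.1, with build hg38. The deposited fold enrichment is a ratio over the library's own background, and the deposited −log10 p was made by the authors' peak caller. In the IDR lists, the deposited −log10 p is the lower of the 2 inputs' values and the deposited score restates the global IDR. Ranking and the cut to equal numbers used −log10 p within a list. The SOX2-set lists were filtered by global IDR. The stricter threshold of the FOXA2 set was a common −log10 p for all its libraries. Depth is not given in the lists, so no counting precision can be stated beyond Wilson intervals for shares of regions.

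Peaks on chromosomes 1 to 22 and X were used, and SOX2-set entries needed a global IDR no higher than 0.05. Peaks of a set were merged into regions, and a region was called in a list at an overlap of at least 1 bp. Gained means called in every list of the construct and in no wild-type list of its set, and lost the opposite. Samples were grouped by their titles. Alternatives were equal numbers of strongest peaks, a stricter threshold (−log10 p of at least 5.43, or an IDR of at most 0.01), a peak cover of at least 50%, all IDR entries, 500 bp around the gene start, and each replicate left out. Overlap code was tested on simulated data.

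Gene positions are from RefSeq (GRCh38.p14). The strand of SP7, DLX5 and TWIST1, and of 20 other listed genes, came from general knowledge, and the background is 15812 of 19974 protein-coding genes with a strand in the RefSeq promoter table. Named regions are, per construct, the 3 best-ranked gained and lost, each member's most widely called region, and up to 10 other osteoblast genes. Other regions in the text were chosen after their values were seen. One list of marker genes is not reported here. The members and gene lists were chosen with earlier results of these data known. Python 3.11.15, numpy 2.4.6, pandas 2.3.3 and scipy 1.17.1 were used.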

Additional observations from a re-analysis of the deposited data

Results flagged for a closer look

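The MSX2 promoter region, whose midpoint is at -83 bp from the gene start, was gained with the FOXA2 CTD deletion, where both libraries had a peak and neither wild type did, and was lost with SOX2, where the wild-type list had a peak and the construct list none that passed an IDR of 0.05. The opposite moves were not tested as a difference. The groups have different wild types and were called in different ways. At equal numbers of peaks and at the stricter threshold the gain with the CTD deletion was not called.

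The region inside RUNX2 at 176966 bp after the gene start was gained with the CTD deletion (−log10 p of 5.51 and 4.01) and lost with the SOX2-FOXA2 CTD fusion, where the entry had an IDR of 0.0634. This difference was not tested either, and the gain was again not called at equal numbers of peaks or at the stricter threshold.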

How the results depend on the processing

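No paired analysis was possible because the results are presence or absence of peaks with no test, and each SOX2-set group has a single list. With equal numbers of strongest peaks, gained regions numbered 3 with full-length FOXA2, 3 with the CTD deletion, 8 with SOX2 and 11 with the fusion, lost regions numbered 14 with SOX2, and open member promoters 0, 0 and 2 with full-length FOXA2, the CTD deletion and the fusion. With the stricter threshold, a mean of 90% of the 5 wild-type regions was called with either FOXA2 construct. Over all regions the shares were 81.3% for full length and 81.5% for the CTD deletion. Full-length FOXA2 gained 9 of 48 window regions (15.1% of all regions) and the CTD deletion 5 (7.63%). The fusion gained 12 of 44 (41.1%). Open member promoters numbered 1, 0 and 2 with full-length FOXA2, the CTD deletion and the fusion. The share of all gene starts at this threshold is not given here, so no difference from other genes is read. With a cover of at least 50%, full-length FOXA2 gained 11 of 158 window regions, against 6.39% of all regions. With all entries whatever their IDR, SOX2 gained 30 and lost 28 of 124 window regions (31.9 and 15.6% of all regions). The fusion gained 38 and lost 21 (43.3 and 14.1%). At that setting 6 member promoters had an entry with SOX2, and 5 each in the wild type and fusion lists. For these counts, too, the share of all gene starts is not given. At 500 bp around the gene start every promoter count stayed the same.

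Leaving out 1 replicate at a time, the share of wild-type regions called ran from 80 to 100% with full-length FOXA2 and from 80.6 to 100% with the CTD deletion. Over all regions these shares ran from 72.3 to 92.3% and from 77.8 to 96.2%. Gained regions ran from 9 to 76 with full-length FOXA2 (76 without its replicate 2, and 13 without its replicate 1) and from 15 to 58 with the CTD deletion (58 without its replicate 1, 31 without its replicate 2). Without wild type replicate 1 they numbered 15 and 20. Lost regions ran from 0 to 2 with full-length FOXA2 and from 0 to 1 with the CTD deletion. Open member promoters ran from 0 to 1 in wild type, 3 to 4 with full-length FOXA2 and 1 to 3 with the CTD deletion. Over all gene starts the shares ran from 34.8 to 36.3%, 55.1 to 62.7% and 48.7 to 63.0% in the same order. The cause of these moves was not tested, apart from leaving fewer lists to agree. Depth limits what an absent peak means, and it is unknown here.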

Other observations

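Single-list calls were unevenly spread over the libraries, which also differed in list length. Of the 96 window regions called in 1 list only, 43 were in full-length FOXA2 replicate 1, 29 in the second CTD deletion library and 14 in the first, and none was in either wild type of the FOXA2 set. In the same order these lists held 161136, 146854 and 78820 peaks, and the wild types 19862 and 25088. The same split over all regions is not given here, so the spread is not read as a trait of the windows. The share called in 1 list was 60%, against 61.5% of all regions. By place, 6 of the 160 regions lay at a member's own gene start, 44 in gene bodies, 40 upstream and 70 downstream, and 10 lay at the start of another gene. Of the 29 regions called in at least 5 lists, 8 were at another gene's start and 3 at a member's own.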
